A study of Drosophila melanogaster with 6 samples.

Results

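Integrins are the receptors by which animal cells hold on to the extracellular matrix. Each is a pair of an alpha and a beta subunit that spans the plasma membrane, binds matrix proteins outside the cell and, through its short tails, is tied to actin by a set of cytoplasmic proteins. In Drosophila, integrins attach muscles and epithelia to matrix, and in haemocytes, the blood cells of the fly, they also serve migration and the uptake of dying cells and bacteria. An alpha subunit needs a beta partner to reach the cell surface, and talin is the adaptor that links the beta tail to actin.

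The transcripts described are those of 5 integrin alpha genes (mew, if, scb, ItgaPS4 and ItgaPS5), 2 integrin beta genes (mys and Itgbn) and 3 genes of cytoplasmic adhesion proteins (rhea, Ilk and Vinc). The members were all probe sets, the groups of short probes that report 1 transcript, whose annotation names exactly 1 gene and names one of these. This gave 12 probe sets for the 10 genes, with 2 each for mew and mys, of 18769 probe sets and 11982 named genes in all. All 10 genes were found.

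S2* cells derive from the S2 culture of Drosophila melanogaster, which resembles haemocytes. Their total RNA was measured on Affymetrix Drosophila 2.0 arrays, with a single array for each sample. The 3 untreated samples were cells grown in Schneider's medium with serum and given nothing further. The 3 treated samples came from cells given 20-hydroxyecdysone (20E), the steroid hormone that times moulting and metamorphosis, at 1 µM for 24 h. The labels name no genetic change in either group, no solvent control and no separate cultures, so solvent cannot be told apart from hormone, and the p-values rest on a spread between samples that may be technical.

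The deposited median intensity of the arrays lay between 43.2 and 56.4, and from 9 to 456 probe sets per array were empty. Treated replicate 2 had the most empty cells and lay apart on the second principal component, at 69.9 against −23.7 and −21.0 for the other treated arrays. Untreated replicate 1 lay at −47.8 there, against 1.53 and 21.0 for the other untreated arrays. Haemocyte markers in untreated cells ran from a group mean below 0 for the scavenger receptor gene Sr-CI to 5167 ± 227 intensity units for Nplp2 (SD, n = 3). Between them lay the phagocytosis receptor gene eater at 12.8 ± 9.52, Hml at 52.8 ± 9.78, crq at 160 ± 60.9 and srp at 308 ± 99.2. The rest of the list had means of 9.6 for He, 27.05 for NimC1, 36.5 and 54.1 for the probe sets of Pxn and 76.6 for ush. Sr-CI, eater and He were thus near 0, and NimC1 and the lower Pxn value lay below the array medians. Hml and the higher Pxn value were near the medians, and ush, crq, srp and Nplp2 lay above them. Precision is limited throughout by there being 3 arrays per group.

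Treated cells were compared with untreated ones to ask which integrin and adhesion transcripts differ after a day of hormone. Among the integrin and adhesion genes, the alpha subunit genes scb and if rose, and nothing fell. The beta subunit gene mys, the talin gene rhea, the integrin-linked kinase gene Ilk and the vinculin gene Vinc gave clear signal in both groups and did not pass the test, and no value of mew, ItgaPS4, ItgaPS5 or Itgbn exceeded 30.3 intensity units. Of 18767 probe sets tested with limma, 5.1% were called (adjusted p under 0.05), 3.02% as higher and 2.08% as lower after treatment. Of the 12 member probe sets, 2 were called, both higher, and 3 had an unadjusted p under 0.05, against 17.2% of all probe sets. The median log2 difference of the 12 was 0.15, against −0.02 over all probe sets. Their median absolute difference was 0.23, against 0.30 over all. Differences are on the scale of log2(quantile-normalized intensity + 16), which shrinks those of dim probe sets.

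**Figure D1:**
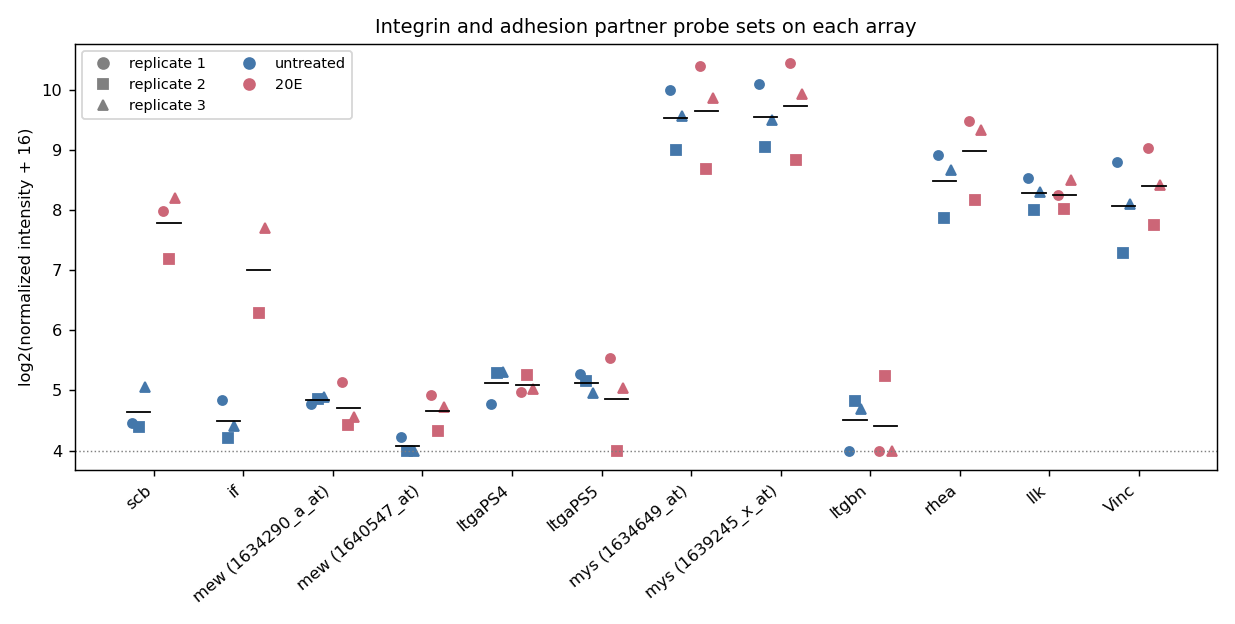
Log2(normalized intensity + 16) of the 12 member probe sets on each of the 6 arrays. Blue marks are untreated and red marks 20E-treated arrays, the mark's shape gives the replicate number, black bars are group means, and the dotted line at 4 is the value of an intensity at or below 0. The treated marks of scb and if lie clear above the untreated ones, while the groups of mys, rhea, Ilk and Vinc overlap.

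Among the alpha subunits, scb encodes αPS3, which in the fly is used in border and follicle cell movement, in tracheal and nervous tissue and, in haemocytes, in the uptake of apoptotic cells and bacteria. Its deposited intensity was 6.12, 4.63 and 16.9 in untreated replicates 1 to 3 and 254, 128 and 322 in treated replicates 1 to 3. All 3 untreated values were thus close to 0 and all 3 treated values far above them, with treated replicate 2 the lowest of the treated arrays. After normalization the means were 9.43 ± 6.85 and 215 ± 76.3 (SD, n = 3 per group). The difference was 3.15 ± 0.33 on the log2 scale (SE, 95% interval 2.37 to 3.94, adjusted p = 0.00334). Its size depends on the offset, since untreated cells gave so little signal. It was 4.49 with an offset of 1 and 1.89 with an offset of 64, and the call was kept under all 13 alternatives, with adjusted p from 0.00141 to 0.0269.

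The gene if encodes αPS2, the alpha subunit of muscle attachment sites and of the wing's lower surface, whose ligands carry the RGD cell-binding motif. Its deposited intensity was 11.7, 2.07 and 5.30 in untreated replicates 1 to 3. It was 67.7 and 222 in treated replicates 2 and 3, and the cell of treated replicate 1 is empty. The treated values at hand both lay above all untreated values, but differed from each other by more than 3-fold. The log2 difference was 2.51 ± 0.46 (SE, 95% interval 1.38 to 3.64, adjusted p = 0.0388, n = 3 untreated and 2 treated). The direction was kept under all 13 alternatives, with differences from 1.35 to 4.04 and adjusted p from 0.0119 to 0.172, while the call was lost under 8. These were offsets of 1 (adjusted p = 0.0828) and 64 (0.0774), median centring (0.053), and leaving out treated replicate 1 (0.0706), treated replicate 3 (0.124) or untreated replicate 1, 2 or 3 (0.0758, 0.147 and 0.172). Leaving out treated replicate 1, where if has no value, acts only through the other probe sets. Leaving out treated replicate 2 or 3 leaves if with 1 treated value, which is then assumed to vary like the untreated ones.

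**Figure D2:**
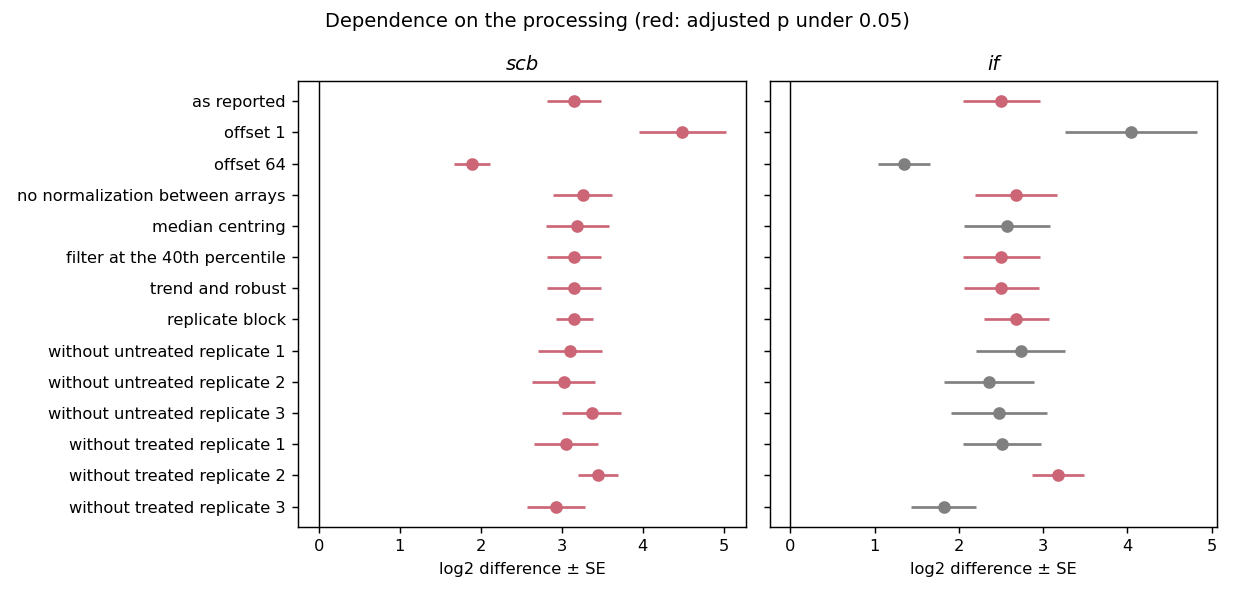
Log2 difference between treated and untreated arrays for scb (left) and if (right) as reported and under 13 alternatives, with bars of 1 SE. Red marks pass an adjusted p of 0.05 and grey marks do not. All marks lie above 0, scb passes throughout and if loses its call under 8 settings.

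The other alpha subunit genes gave little signal. The gene mew encodes αPS1, a laminin-binding subunit best known from the wing's upper surface and from muscle, and it was measured by 2 probe sets. The first, 1634290_a_at, gave normalized intensities of 11.3, 12.8 and 13.8 in untreated and 19.2, 5.41 and 7.64 in treated replicates 1 to 3. The treated values spread on both sides of the untreated ones, and the difference was −0.13 ± 0.24 (SE, adjusted p = 0.854). The second, 1640547_at, gave 2.81, −0.487 and −0.00724 in untreated and 14.3, 4.14 and 10.5 in treated replicates. There the groups did not overlap, but the difference of 0.58 ± 0.22 did not pass the test (adjusted p = 0.243), and with an offset of 1 it was 2.63 (adjusted p 0.106 to 0.532 over the 12 alternatives). The probe sets of mew thus gave no shared direction, and all their values lay under 20 intensity units.

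ItgaPS4 and ItgaPS5 encode close relatives of αPS3, and ItgaPS4 is also known as a lamellocyte marker. In the RefSeq gene table of Release 6 plus ISO1 MT, ItgaPS4 is the next gene after scb. Its normalized intensity was 11.4, 22.9 and 23.6 in untreated and 15.5, 22.4 and 16.6 in treated replicates. The groups overlapped, and the difference was −0.03 (95% interval −0.57 to 0.50, adjusted p = 0.967), beside the rise of its neighbour. ItgaPS5 gave 22.6, 19.8 and 14.9 in untreated and 30.3, −0.0326 and 16.7 in treated replicates, so the treated arrays held both the highest and the lowest value (adjusted p = 0.807).

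The beta subunit gene mys encodes βPS, the partner of all PS alpha subunits and the subunit that talin binds. Its probe set 1634649_at had normalized intensities of 1004, 496 and 743 in untreated and 1329, 394 and 918 in treated replicates 1 to 3. The treated arrays held both the highest and the lowest value, and the groups overlapped. The means were 748 ± 254 and 881 ± 469 (SD, n = 3 per group), with a difference of 0.13 ± 0.48 on the log2 scale (SE, adjusted p = 0.936). The second probe set, 1639245_x_at, whose suffix marks probes that can match other transcripts, gave a difference of 0.18 ± 0.46 (adjusted p = 0.903). The 95% interval of the first ran from 0.499-fold to 2.39-fold, so a change of 2-fold either way could have been missed with these arrays.

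Itgbn encodes βν, the more divergent beta subunit, known for its part with αPS3 in phagocytosis by haemocytes. Its normalized intensity was −3.76, 12.4 and 9.71 in untreated and −3.19, 21.8 and −4.84 in treated replicates. Values at or below 0 occurred in both groups, on 1 untreated and 2 treated arrays, and the difference was −0.09 ± 0.41 (SE, adjusted p = 0.948).

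The changes of scb and if were also set against that of mys on the same array, using 1634649_at, with the same offset and normalization. The log2 value of scb minus that of mys was −4.88 ± 0.57 in untreated and −1.86 ± 0.49 in treated cells (SD, n = 3 per group), a rise of 3.03. For if minus mys it was −5.03 ± 0.21 and −2.28 ± 0.15 (SD, n = 3 and 2), a rise of 2.75. Treated replicate 1, where if is empty and mys was highest (1329 units), is missing from this comparison. The rise thus exceeds that of if itself (2.51), though mys did not fall over all 6 arrays. The groups did not overlap in either case. An exact two-sided permutation test cannot give a p below 0.1 with these arrays, and both gave 0.1. Both stayed at 0.1 after Benjamini-Hochberg adjustment over the 2 tests. Because scb and if were picked by their calls on these same arrays, groups apart and this p were largely set beforehand. The test could thus not settle whether the subunits differ. The rises ranged from 1.76 to 4.36 for scb and from 1.57 to 4.30 for if over 10 alternatives, which were chosen after seeing the data.

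Of the cytoplasmic partners, rhea encodes talin, which binds beta tails and actin and activates integrins. Its normalized intensity was 466, 217 and 390 in untreated and 698, 270 and 624 in treated replicates 1 to 3. Treated replicate 2 lay within the untreated range and the other treated arrays above it. The difference was 0.51 ± 0.43 (SE, 95% interval −0.52 to 1.54, adjusted p = 0.637), the largest of the 3 partners. It was within the spread between arrays when replicate numbers were not taken as pairs. Each treated array lay above the untreated array of the same number. With that number as a block the SE was 0.20 (limma adjusted p = 0.248).

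Vinc encodes vinculin, which binds talin and actin at strained adhesions. It gave 426, 140 and 257 in untreated and 506, 199 and 323 in treated replicates. The groups overlapped widely, with a difference of 0.34 ± 0.47 (SE, 95% interval −0.77 to 1.44, adjusted p = 0.80). Here too each treated array lay above the untreated array of the same number. That order did not hold for mys or Ilk, and its share over all probe sets was not counted. Whether the numbers pair the samples is not given by the labels. With that number as a block the SE was 0.19 (limma adjusted p = 0.412).

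Ilk encodes integrin-linked kinase, a scaffold that acts with PINCH and parvin at muscle attachments. It gave 353, 241 and 298 in untreated and 287, 243 and 345 in treated replicates. Its means of 297 ± 56.3 and 291 ± 51.1 (SD, n = 3 per group) nearly coincided. The difference of −0.03 had a 95% interval from −0.57 to 0.52, from 0.672-fold to 1.44-fold, narrower than those of mys, rhea and Vinc.

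**Figure D3:**
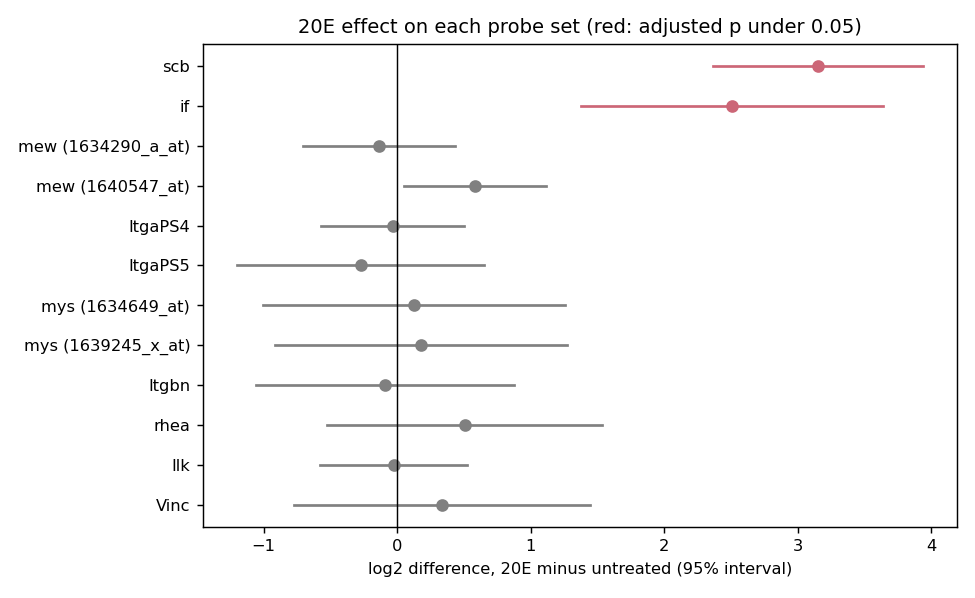
Log2 difference, treated minus untreated, of each of the 12 member probe sets, with 95% intervals from limma. The 2 red probe sets, scb at 3.15 and if at 2.51, were called, and the other 10 lie between −0.27 and 0.58.

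Among the 11 member probe sets measured on every array, the treated group lay wholly above the untreated one for 2, scb and 1640547_at of mew, and wholly below it for none. Over the 18080 probe sets of the series measured on every array these shares were 10.4% and 12.4%, so 2 of 11 is close to the background. Several members had the same lowest array. Replicate 2 was the lowest array of both groups for 7 of the 11, against 24.1% of all probe sets. These were both probe sets of mys, rhea, Ilk and Vinc, and also scb and 1640547_at of mew, whose untreated values lay near 0 and so carry little order. The first 5 were the members whose means in both groups exceeded the median of all probe sets, and replicate 2 was lowest in both groups for 33.9% of the 7808 such probe sets. The order of the other arrays was not the same for all 5. This was noticed in the data and is a description. The part of treated replicate 2 in the overlap of mys, rhea and Vinc was not tested beyond leaving it out. Without it the differences were 0.60 and 0.62 for the probe sets of mys, 0.92 for rhea and 0.67 for Vinc. Their adjusted p by limma was 0.386, 0.381, 0.203 and 0.481, and the low untreated replicate 2 stayed in that fit. Leaving out untreated replicate 2 instead gave −0.13 and −0.06 for mys, 0.19 for rhea and −0.05 for Vinc.

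The wider adhesion complex was described by a list of 20 genes whose proteins join integrins to actin or signal from them, of which 13 were measured, by 1 probe set each. None passed the test by limma, where 5.1% of all probe sets did, and 4 of the 13 had an unadjusted p under 0.05, where 17.2% of all did. The median log2 difference was 0.08. The lowest adjusted p was that of ics, which encodes the fly relative of the PINCH-binding protein RSU-1, at 0.81 ± 0.21 (SE, adjusted p = 0.083). Its mean was 266 ± 42.7 in untreated and 477 ± 52.5 in treated cells (SD, n = 3 per group), and the groups did not overlap. It passed with an offset of 64 and without normalization between arrays. Zasp52, a PDZ and LIM domain protein gene of muscle attachments, differed by 1.25 ± 0.32 (adjusted p = 0.0874) and was called without treated replicate 2. Zyx, the zyxin gene, differed by 0.86 ± 0.23 (adjusted p = 0.0957) and wech, whose product links talin to Ilk, by 0.91 ± 0.30 (adjusted p = 0.167). These 4 were named after their values were seen. The PINCH gene stck and parvin, which bind Ilk directly, differed by 0.06 ± 0.20 and −0.10 ± 0.21 (SE), with adjusted p of 0.929 and 0.886.

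Matrix proteins that integrins or other receptors of the cell bind made a list of 13 genes, all measured, by 24 probe sets. Of these, 2 rose and 22 did not pass the test, with a median log2 difference of 0.08. With few probe sets, 2 of 24 is close to the 5.1% called over all. SPARC, which encodes a collagen-binding matrix protein and was named after its values were seen, was at 6656 ± 101 in untreated and 5092 ± 441 in treated cells (SD, n = 3 per group). The groups did not overlap and the difference of −0.39 ± 0.18 (SE) did not pass (adjusted p = 0.339), but it was called lower with the trend and robust variance model. Both that rose encode chains of collagen IV, the main collagen of basement membranes. These were vkg at 1.54 ± 0.23 (SE, adjusted p = 0.0135) and Col4a1 at 1.23 ± 0.24 (adjusted p = 0.0356), and neither was called without untreated replicate 2, untreated replicate 3, treated replicate 1 or treated replicate 3. Col4a1 was also not called with an offset of 1 or without treated replicate 2. The laminin subunit genes LanA, LanB1 and LanB2, ligands of αPS1 and αPS3 integrins, differed by 0.94 ± 0.53, 0.02 ± 0.33 and −0.27 ± 0.37, with adjusted p of 0.448, 0.99 and 0.793. LanB1 had 2 untreated values. The gene Tig, which encodes the RGD-bearing αPS2 ligand tiggrin, was measured at 34.7 ± 8.25 and 55.0 ± 14.3 units (SD, n = 3 per group), a difference of 0.48 ± 0.23 that did not pass (adjusted p = 0.375).

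**Figure D4:**
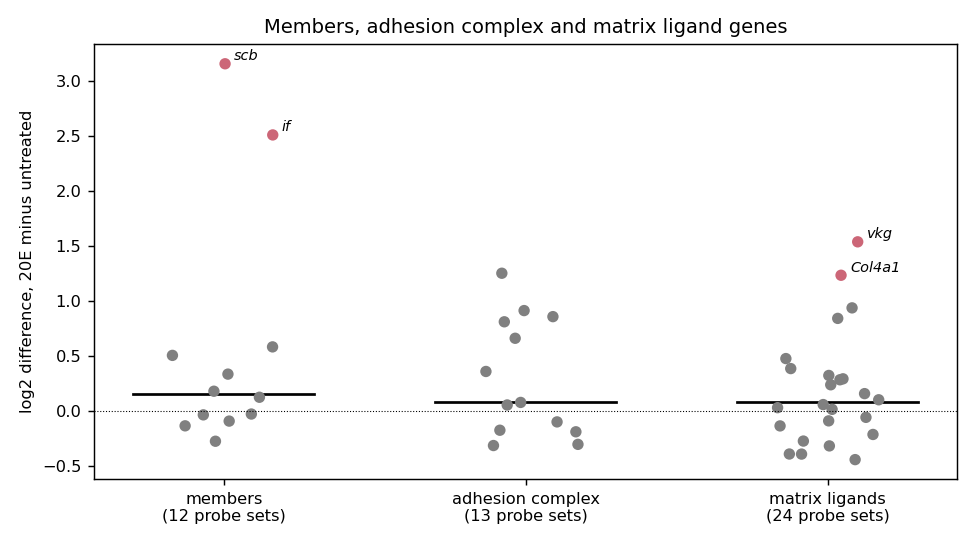
Log2 difference, treated minus untreated, of the member probe sets (12), the adhesion complex list (13) and the matrix ligand list (24). Each mark is 1 probe set, spread sideways for legibility, the black bars are medians at 0.15, 0.08 and 0.08, and red marks passed an adjusted p of 0.05: scb, if, vkg and Col4a1.

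The probe sets whose pattern over the 6 arrays was most like that of scb were sought among 13149 others that have a named gene and no empty cell, by the root mean squared difference of log2 values after each was centred on its own mean. The nearest 5 were those of corto, CG4650, Pepck2, CG11899 and Mov10, at 0.15, 0.17, 0.18, 0.23 and 0.23. All 5 rose, and they share with scb the 2 groups of arrays and the low value on treated replicate 2. This follows from picking them by likeness to scb on these same arrays and is not a separate result. Like scb, corto was at 4.31 ± 5.59 units in untreated and 172 ± 71.6 in treated cells (SD, n = 3 per group), and Pepck2, a gene of phosphoenolpyruvate carboxykinase, at 9.63 ± 2.60 and 194 ± 53.7.

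Markers of muscle, lamellocytes, haemocytes, fat body, crystal cells and neurons were measured on the same arrays. The counts below stand beside 17.2% of all probe sets with an unadjusted p under 0.05 and 5.1% called by limma. Of 6 muscle marker probe sets (4 of 8 genes), none was called by limma and 1 had an unadjusted p under 0.05. The summed intensity of the 5 with a value on all arrays ran from 2201 to 6375 units in untreated and 1997 to 4113 in treated cells, most of it from the myosin light chain gene Mlc2. Of 7 lamellocyte marker probe sets, which include those of the members mys and ItgaPS4, 3 had an unadjusted p under 0.05 and 1 was called. This was PPO3, which rose, from 26.4 ± 9.02 to 131 ± 27.8 (SD, n = 3 per group, adjusted p = 0.00978), while atilla, at 18.9 ± 3.32 in untreated cells, had a log2 difference of −0.13 ± 0.21 (SE, adjusted p = 0.83). The filamin gene cher was at 158 ± 33.2 and 71.9 ± 21.0, with groups that did not overlap and a difference of −0.99 ± 0.26 that did not pass (adjusted p = 0.089). The gene msn, with a difference of 1.61, was measured on 1 treated array only. The sum of the list without mys, ItgaPS4 and msn ran from 158 to 228 and from 180 to 280 units. Of 11 haemocyte marker probe sets, 5 had an unadjusted p under 0.05, of which 2 rose (srp and crq) and 1 fell (Nplp2) by the adjusted test. The others, Sr-CI at 1.08 ± 0.25 (SE, limma adjusted p = 0.0596) and ush at 1.41 ± 0.39 (adjusted p = 0.1025), were higher but did not pass. The sum of the list ran from 5604 to 6335 and from 1751 to 4275 units. Most of the untreated sum was Nplp2, and without it the other 10 summed to 523 to 910 units in untreated and 1654 to 4168 in treated cells. Most of that sum was srp and crq, with means of 308 and 160 in untreated and 1576 and 1157 in treated cells. The median log2 difference of the 11 was −0.03, so the sum does not speak for the list. Of 5 fat body marker probe sets, 3 had an unadjusted p under 0.05 and 1 rose, that of Fbp2, from 27.7 ± 13.9 to 561 ± 160. The sum ran from 173 to 203 and from 657 to 951 units, and most of the treated sum was Fbp2. Fbp1 went the other way, with the treated group wholly below and a difference of −0.81 ± 0.24 (SE, adjusted p = 0.135). For apolpp, at 2.08 ± 0.72 (adjusted p = 0.19), treated replicates 1 to 3 spread widely, at 42.1, 9.26 and 206 units. None of the 4 crystal cell or 10 neuron marker probe sets was called by limma, with 0 and 2 at an unadjusted p under 0.05. Their sums ran from 237 to 630 and from 224 to 419 for crystal cells, and from 384 to 724 and from 382 to 488 for neurons. The part of cell makeup in the rises of scb and if was not tested, and in RNA of whole cultures more cells of a type and more RNA per cell cannot be told apart.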

How the data were processed

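For each array the authors deposited linear intensities, 1 for each probe set. How probes were summarised, background corrected and scaled is not given in the sources used here. Values below 0 made up 1.99% to 5.29% of each array. Groups and replicate numbers came from the sample titles. Intensities were quantile normalized between the 6 arrays, floored at 0 and taken as log2(intensity + 16). Quoted normalized intensities are before the floor. The groups were compared two-sided by lmFit and eBayes of limma 3.58.1 (R 4.3.3), with Benjamini-Hochberg adjustment over the 18767 probe sets tested and a threshold of 0.05. The fit could not be made for 2. The fit was tested on simulated data, where it called 4% of 100 probe sets changed 2-fold and 52% of 100 changed 4-fold. Only 58 of the 18080 simulated probe sets were called in all, against 957 of 18767 in the data. The adjusted threshold was therefore stricter in the simulation, and its shares are not the sensitivity of the reported fit. Changes of 2-fold or 4-fold that were not called may still have been missed.

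Gene names came from the platform annotation, updated by gene number through the RefSeq table. One symbol was given for 13647 probe sets, several for 402, and 4720 were unnamed here. The annotation's build was not used, so no coordinates are printed.

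The members and lists were chosen with earlier results of these data known. All member probe sets are named, with every called gene of the adhesion complex and matrix ligand lists and, for scb, the 5 most similar patterns. Marker genes, list genes that were not called and the comparison with mys were named after values were seen. Alternatives were offsets, normalization, eBayes with trend and robust, dropping probe sets under the 40th percentile of intensity, a block for the replicate number and leaving out each array.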

Additional observations from a re-analysis of the deposited data

How the results depend on the processing

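Over 12 member probe sets, 124 values under alternatives kept their direction and side of the threshold. For if 8 lost the call, as given above, and 19 turned direction, all of them for probe sets that were not called. The number of probe sets changed, 957, was 567 with an offset of 1 and ran from 326 to 1174 on leaving out 1 array, with 401, 326, 435 and 410 without untreated replicates 2 and 3 and treated replicates 1 and 3. Without normalization between arrays 723 were higher and 307 lower, against 567 and 390. The number of members changed, 2, was 1 with offsets of 1 and 64 and with median centring, and ran from 1 to 2 on leaving out 1 array. The adhesion complex list had 1 called with an offset of 64 and without normalization, and 0 to 1 on leaving out 1 array. The matrix ligand list had 1 called with an offset of 1, 3 with a trend and robust variance model (the third, SPARC, lower), and 0 to 2 on leaving out 1 array. Among the turned differences, those of ItgaPS4 and Ilk were 0.030 and 0.176 without normalization, and that of Ilk was 0.068 with median centring. The others turned on leaving out 1 array. Over these 6 settings the first probe set of mew ran from −0.361 to 0.0143, ItgaPS4 from −0.208 to 0.060, ItgaPS5 from −0.614 to 0.152, the probe sets of mys from −0.245 to 0.601 and from −0.17 to 0.622, Itgbn from −0.508 to 0.125, Ilk from −0.161 to 0.102 and Vinc from −0.050 to 0.711. mys turned without untreated replicate 2 or treated replicate 1, Vinc without untreated replicate 2, and ItgaPS5 and mew without treated replicate 2. The cause was not tested.

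With the replicate number as a block, 954 probe sets and the same 2 members, scb and if, were called. Deviations from group means of same-numbered arrays correlated with r of 0.24, 0.37 and −0.02 across probe sets. For arrays of different number r ran from −0.40 to 0.34. The labels do not say whether the numbers pair the samples, and the main fit did not take them as pairs. With the block the SE was 0.233 and 0.225 for the probe sets of mys, 0.200 for rhea and 0.193 for Vinc. In the main fit these were 0.476, 0.461, 0.434 and 0.467. The filter at the 40th percentile left 7 member probe sets, and no value for mew, ItgaPS4, ItgaPS5 or Itgbn. Signal near 0 limits what can be said of these genes, and of untreated levels of scb and if.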
